A study of Homo sapiens with 9 samples.

Results

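The 10 genes described here mark the epithelial or the mesenchymal state of a cell. They were taken from the count tables by symbol, as 10 of 60664 listed genes (40609 with a symbol), and all 10 passed the filter on low counts that left 18299 genes for testing. The 4 epithelial genes are CDH1 (E-cadherin, the adhesion molecule of epithelial junctions), EPCAM (an epithelial adhesion protein), ST14 (matriptase, a membrane serine protease of epithelia) and ESRP1 (an epithelial splicing regulator). The other 6 are CDH2 (N-cadherin), VIM (vimentin, the intermediate filament of mesenchymal cells) and the transcription factors ZEB1, ZEB2, SNAI2 (SLUG) and TWIST1.

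Epithelial cells hold together through E-cadherin junctions. In an epithelial-mesenchymal transition, factors of the ZEB, SNAIL and TWIST families repress CDH1 and other epithelial genes, while N-cadherin and vimentin are often gained. HEK293 cells derive from embryonic kidney culture and are known to carry epithelial and mesenchymal genes side by side.

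Total RNA was sequenced from 9 libraries, in 3 groups of 3, of the established human line HEK293 Flip-In T-Rex. The TTC33 knock-down carried a microRNA against TTC33 and the CCDC97 knock-down a microRNA against CCDC97, each under a promoter that tetracycline induces. The control was the same line without any microRNA, so no group carried a non-targeting microRNA. Tetracycline, 100 ng/ml over 3 days, was given to every group, the control included, and cells were confluent when it ended. The labels do not say whether a line is 1 clone or whether replicates were separate cultures, so p-values measure only how far these libraries differ, and that spread may be technical.

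Counts in genes ran from 21764203 to 36110891 a library. TTC33 fell from 37.8 ± 0.772 CPM (counts per 1e+06 scaled gene counts, mean ± SD, n = 3) to 7.41 ± 1.96, or 19.7% of control, in its knock-down, and CCDC97 fell from 60.1 ± 0.55 to 15.6 ± 0.283 CPM, or 26%, in its own. CCDC97 was also called higher in the TTC33 knock-down, at 80.7 ± 15.4 CPM (log2 0.43, edgeR adjusted p = 0.0371). TTC33 was not called in the CCDC97 knock-down, at 43.2 ± 11.8 CPM (log2 0.19, edgeR adjusted p = 0.632). In each knock-down, replicate 1 differed from the other replicates in how its counts moved with GC content. In the TTC33 knock-down, the decile of genes richest in GC had a median log2 difference from control of -0.09 in replicate 1 and of 0.37 and 0.40 in the others; in the CCDC97 knock-down the values were 0.15, then -0.28 and -0.28. Markers of other cell types were low: summed over 6 genes each, fibroblast markers ran from 14.1 to 15 CPM in control, 16.8 to 19.6 in the CCDC97 and 13.8 to 16.9 in the TTC33 knock-down, squamous markers stayed at or under 2.18 CPM and leukocyte markers at or under 0.797 CPM. The 6 endothelial markers summed to between 1.42 and 1.93 CPM in control, 1.5 and 1.91 in the CCDC97 knock-down and 2.76 and 3.5 in the TTC33 knock-down, and 1 of the 2 tested was called with TTC33. For scale, 11.9% of all genes tested were called with TTC33 and 4.56% with CCDC97, and the marker lists are too short to set against these shares. In means of control and TTC33 knock-down, ESAM had 1 and 1.89 CPM (edgeR adjusted p = 0.0108), VWF 0.427 and 0.79 (0.103), KDR 0.194 and 0.42, PECAM1 0.0379 and 0.0894, CDH5 0.0423 and 0, and TIE1 0.00921 and 0. Of the 4 tested fibroblast markers, LUM was called with TTC33 (0.105 CPM in control, 0.655 with TTC33, edgeR adjusted p = 0.011) and COL3A1 with CCDC97 (3.31 and 7.16 CPM, log2 1.11, 0.00333). With TTC33, COL1A1 changed by 0.07, COL3A1 by 0.01 and PDGFRA by -0.12 on the log2 scale, none called. With CCDC97, COL1A1 changed by -0.23, LUM by -0.05 and PDGFRA by 0.37, none called. The untested DCN had 0 CPM in control, 0.163 with TTC33 and 0.011 with CCDC97, and POSTN had 0.21, 0.345 and 0.208. The part of these differences in the results below was not tested. In bulk RNA, more or fewer cells of a state cannot be told apart from more or less RNA per cell.

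ZEB1 and ZEB2 are the textbook targets of the miR-200 family, whose 5 members keep both factors low in epithelia. The family is shown because its seeds (bases 2 to 8, in capitals) and the matching sites are a defining sequence feature of these genes. The mature forms, from RefSeq on GRCh38.p14 and written 5′ to 3′, fall into 2 seed groups.
hsa-miR-200b-3p: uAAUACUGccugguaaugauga
hsa-miR-200c-3p: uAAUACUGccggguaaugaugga
hsa-miR-429: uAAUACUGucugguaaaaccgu
hsa-miR-200a-3p: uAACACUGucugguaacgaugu
hsa-miR-141-3p: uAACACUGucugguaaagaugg

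The complement of the first seed, CAGTATT, occurred 6 times on the sense strand of the ZEB1 3′ UTR (2549 bases) and 5 times in that of ZEB2 (5370 bases), in the GENCODE 29 models on GRCh38. Of the 3′ UTRs within 10% of the ZEB1 length, ZEB1 included, 26.3% of 1185 held it at least once and 0.0844% held as many copies. For ZEB2, itself included, these shares were 45.0% and 0.185% of 542. In each case the share with as many copies is the gene itself, and no other UTR of like length held as many. The complement of the second seed, CAGTGTT, occurred 3 times in ZEB1 (30% of like UTRs held it, 0.506% as often) and 4 times in ZEB2 (51.5% and 1.48%). Examples, with the match in capitals, are these.
ZEB1, chr10:31527625-31527642, + strand: tatcttatCAGTATTatc
ZEB1, chr10:31527719-31527736, + strand: atccgcttCAGTATTtta
ZEB2, chr2:144389050-144389067, - strand: ccatacatCAGTATTttt
ZEB2, chr2:144388987-144389004, - strand: caatgcatCAGTATTatg
Each is a match of letters in the annotated UTR and was not tested as a binding site. The genes of the family gave almost no counts: MIR200C had 1 count in 1 library, its host gene MIR200CHG had 4 counts over 3 libraries, and MIR141, MIR200A, MIR200B and MIR429 had 0, which allows up to 3 counts a library. Mature miRNAs were not measured in these tables.

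In control cells the 10 genes spanned a wide range of levels. Per kilobase of annotated exon (CPM divided by the length of the union of exons, or RPKM), vimentin was highest at 119 ± 1.69, followed by EPCAM at 36.2 ± 0.956 and CDH2 at 29.6 ± 0.348. ZEB1 (8.35 ± 0.108), TWIST1 (4.68 ± 0.484) and ZEB2 (2.91 ± 0.123) came next, and CDH1 followed at 1.75 ± 0.211. ESRP1 (0.141 ± 0.0043), ST14 (0.0612 ± 0.00951) and SNAI2 (0.0321 ± 0.024) were near the lower end of what these libraries resolve. The last neighbours in this order, ST14 (0.051 to 0.0699) and SNAI2 (0.00815 to 0.0561), overlapped over the 3 control libraries, and the other neighbours did not. The order of ZEB2 and TWIST1 depends on the gene model: per kilobase of the longest transcript, ZEB2 was at 7.61 and TWIST1 at 5.71. The epithelial genes thus did not share a level in control cells, with EPCAM among the highest and CDH1, ESRP1 and ST14 among the lowest of the 10.

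**Figure D1:**
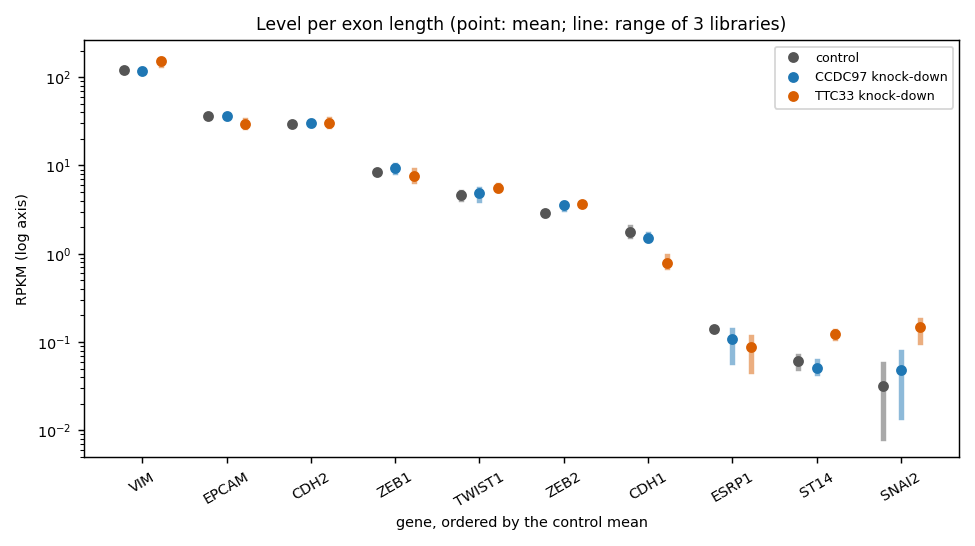
RPKM of the 10 genes on a log axis, ordered by the control mean; points are group means and lines the range of 3 libraries. CDH1 lies at 1.75 in control and 0.785 in the TTC33 knock-down, and EPCAM and CDH2 change places in the TTC33 knock-down with overlapping ranges.

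The TTC33 knock-down changed 6 of the 10 genes, in both directions within the epithelial set. CDH1 and EPCAM fell, and ST14, vimentin, ZEB2 and SNAI2 rose (edgeR quasi-likelihood test, Benjamini-Hochberg adjusted p under 0.05). Over all 18299 genes tested, 11.9% were called, 6.5% higher and 5.44% lower. The 4 not called were CDH2, ESRP1, ZEB1 and TWIST1. The count of 6 rests on most libraries: it was 1 without control replicate 1 or 2 or TTC33 knock-down replicate 2, and 2 without control replicate 3 or TTC33 knock-down replicate 3, with CDH1 called each time. For 8 of the 10, against 36.8% of all genes, the CPM of TTC33 knock-down and control libraries did not overlap. The overlapping genes were CDH2 and ZEB1. The median log2 fold change over the 10 was 0.14 and the median size 0.33, against 0.00 and 0.21 over all genes. The 10 genes were chosen with earlier results of these data known. Their shares beside those of all genes are a description and no test of the set.

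**Figure D2:**
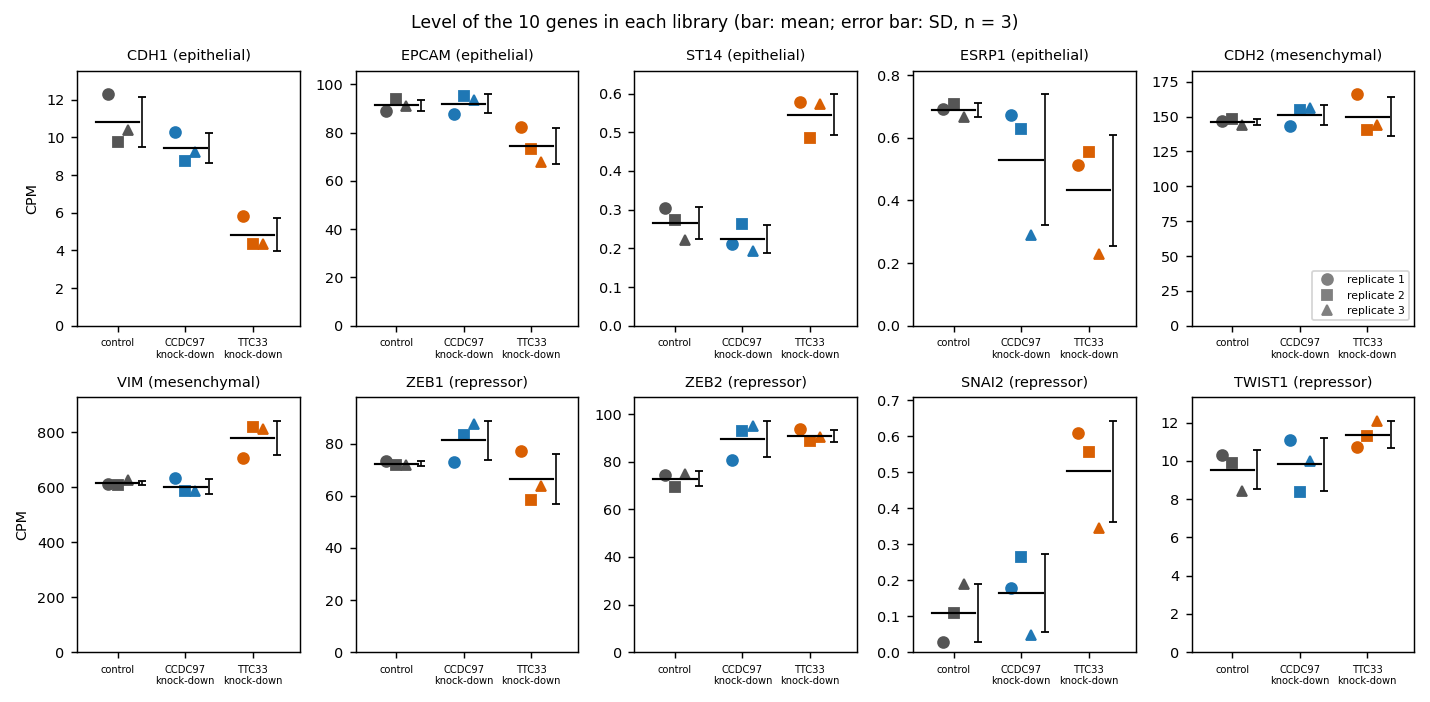
CPM of each gene in each of 9 libraries, with replicates 1, 2 and 3 as circles, squares and triangles, the group mean as a bar and the SD as an error bar (n = 3). All 3 TTC33 knock-down libraries lie below the other 6 for CDH1 and EPCAM and above them for ST14, VIM and SNAI2.

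CDH1 (chr16:68737225-68835548, + strand) had 12.3, 9.77 and 10.4 CPM in control replicates 1, 2 and 3. It had 10.3, 8.75 and 9.24 CPM in the CCDC97 knock-down and 5.85, 4.33 and 4.36 CPM in the TTC33 knock-down. Every TTC33 knock-down library lay below every other library, while the control and CCDC97 knock-down libraries overlapped. With TTC33 depleted, E-cadherin RNA was at 45.0% of control. This is a log2 value of -1.15 ± 0.14 (SE), with a 95% interval from -1.46 to -0.84 (edgeR adjusted p = 0.000763). After CCDC97 knock-down the change was -0.20 ± 0.13 (interval -0.50 to 0.10, edgeR adjusted p = 0.446), and -0.10 without control replicate 1. The change with TTC33 held its call in all 20 alternative fits, between -1.32 and -1.05.

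CDH2 (chr18:27950966-28177446, - strand), the cadherin of neural and mesenchymal cells, stayed close to its control level. It had 147, 148 and 144 CPM in control, 143, 155 and 156 in the CCDC97 knock-down and 166, 140 and 144 in the TTC33 knock-down. The 3 groups overlapped, and the highest library was replicate 1 of the TTC33 knock-down. The change with TTC33 was 0.03 (interval -0.14 to 0.20, edgeR adjusted p = 0.797) and with CCDC97 0.05 (interval -0.12 to 0.22, edgeR adjusted p = 0.782). Without replicate 1 of the TTC33 knock-down the value was -0.05.

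The ratio of the 2 cadherins gives the same levels side by side. Per exon length, N-cadherin RNA was 14.9, 18.9 and 17.3 times E-cadherin RNA in control libraries. The ratio was 17.4, 22 and 21.1 in the CCDC97 knock-down, and 35.5, 40.2 and 41.2 in the TTC33 knock-down. The TTC33 knock-down libraries all lay above the other 6, with a mean of 39 ± 3.04 against 17 ± 2.01 in control (SD, n = 3). E-cadherin made up 5.58% ± 0.631 of the summed level per length of the pair in control, 4.77% ± 0.59 in the CCDC97 and 2.51% ± 0.199 in the TTC33 knock-down.

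EPCAM (chr2:47345158-47387601, + strand) gave 89.0, 93.8 and 90.9 CPM in control, 87.5, 95.0 and 93.3 in the CCDC97 knock-down and 82.4, 73.0 and 68.0 in the TTC33 knock-down. The TTC33 knock-down libraries were the lowest of the 9, with replicate 1 nearest to control. EPCAM stood at 81.7% of control there (log2 -0.29 ± 0.08, interval -0.47 to -0.12, edgeR adjusted p = 0.0393). This call was lost without control replicate 1, 2 or 3 (edgeR adjusted p = 0.115, 0.148 and 0.116), CCDC97 knock-down replicate 3 (0.0538) or TTC33 knock-down replicate 2 or 3 (0.137 and 0.145). With GC content and length corrected, the value was -0.28 (edgeR adjusted p = 0.00243). In the CCDC97 knock-down EPCAM changed by 0.01 (interval -0.17 to 0.19, edgeR adjusted p = 0.961).

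ST14 (chr11:130159562-130210376, + strand) was rare, with 11, 10 and 7 counts in control libraries, 6, 8 and 4 in the CCDC97 knock-down and 18, 14 and 15 in the TTC33 knock-down. As CPM these were 0.304, 0.272 and 0.222 in control, 0.212, 0.264 and 0.194 in the CCDC97 knock-down, and 0.578, 0.485 and 0.574 in the TTC33 knock-down. The TTC33 knock-down libraries were the highest, which is the opposite direction from CDH1 and EPCAM. Matriptase RNA rose by 1.02 ± 0.27 on the log2 scale (interval 0.42 to 1.61, edgeR adjusted p = 0.0356). ST14 lies in the decile richest in GC (62.8%), whose genes were themselves higher in TTC33 knock-down replicates 2 and 3. In replicate 1 the median of that decile was -0.09. The log2 difference of ST14 from the control mean was 0.96 in replicate 1, 0.74 in replicate 2 and 0.95 in replicate 3. With GC content and length corrected the ST14 value was 0.81 (edgeR adjusted p = 0.0793). The call was also lost with no filter on low counts (0.102), by DESeq2 (0.114), and without control replicate 1, 2 or 3 (0.0995, 0.122 and 0.123), CCDC97 knock-down replicate 3 (0.0523) or TTC33 knock-down replicate 2 or 3 (0.0912 and 0.133).

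ESRP1 (chr8:94641074-94707466, + strand) had 25, 26 and 21 counts in control, 19, 19 and 6 in the CCDC97 and 16, 16 and 6 in the TTC33 knock-down. As CPM, control gave 0.691, 0.708 and 0.666 and the TTC33 knock-down 0.514, 0.555 and 0.230, with no overlap. The CCDC97 knock-down gave 0.672, 0.628 and 0.290, and replicate 3 was low in both knock-downs. Its change with TTC33 was -0.64 ± 0.34 (interval -1.38 to 0.10, edgeR adjusted p = 0.215; -0.38 without TTC33 knock-down replicate 3) and with CCDC97 -0.32 ± 0.33 (edgeR adjusted p = 0.63). A fall as large as that of CDH1 lies within the TTC33 interval at this depth. Its paralog ESRP2 was far more abundant, at 65.7, 63.2 and 68.8 CPM in control and 49.7, 60.7 and 63.2 in the TTC33 knock-down (log2 -0.19, edgeR adjusted p = 0.265).

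Vimentin rose. VIM (chr10:17228259-17237593, + strand) had 613, 608 and 625 CPM in control, 633, 587 and 587 in the CCDC97 knock-down and 707, 819 and 813 in the TTC33 knock-down. The TTC33 knock-down libraries were the highest, again with replicate 1 nearest to control, and the other 2 groups overlapped. The rise was 0.34 ± 0.07 on the log2 scale (interval 0.18 to 0.50, edgeR adjusted p = 0.014), from 616 ± 8.71 to 780 ± 63.0 CPM (SD, n = 3). Without control replicate 1, 2 or 3 the edgeR adjusted p was 0.0716, 0.0732 and 0.0573, and without TTC33 knock-down replicate 2 or 3 it was 0.0757 and 0.0717; the value stayed between 0.30 and 0.41 in all 20 alternatives. The antisense gene VIM-AS1, which shares 641 exon bases with VIM, held 68 to 181 counts a library. Since strand is not given, reads from the shared bases cannot be told apart.

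Of the ZEB factors, which bind E-box pairs and repress CDH1, only ZEB2 was called. ZEB2 (chr2:144364364-144524583, - strand) had 74.5, 69.4 and 74.9 CPM in control, 80.8, 92.9 and 95.1 in the CCDC97 knock-down and 93.6, 88.6 and 90.2 in the TTC33 knock-down. Both knock-downs lay above all control libraries and overlapped with each other. The TTC33 knock-down raised ZEB2 by 0.32 ± 0.08 (interval 0.15 to 0.49, edgeR adjusted p = 0.0267). With GC content and length corrected it was 0.46 (edgeR adjusted p = 0.00014). The call was lost without control replicate 1, 2 or 3 (edgeR adjusted p = 0.0963, 0.129 and 0.0829) and without TTC33 knock-down replicate 2 or 3 (0.0769 and 0.0935).

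ZEB1 (chr10:31318495-31529814, + strand) had 73.3, 71.7 and 71.6 CPM in control, 72.9, 83.3 and 87.6 in the CCDC97 knock-down and 77, 58.4 and 63.6 in the TTC33 knock-down. Replicate 1 of the TTC33 knock-down lay above the controls and replicates 2 and 3 below them. The change was -0.12 ± 0.10 (interval -0.35 to 0.11, edgeR adjusted p = 0.454). It was -0.24 without replicate 1 of the TTC33 knock-down (edgeR adjusted p = 0.0377) and 0.05 with GC content and length corrected (edgeR adjusted p = 0.447), so its direction depends on the processing. ZEB1 has a GC content of 38.5%, in the second of the 10 deciles from the lowest. ZEB1-AS1, which shares 366 exon bases with ZEB1, held 199 to 502 counts a library.

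SNAI2 (chr8:48917604-48921740, - strand), which encodes a repressor of CDH1, was the rarest of the 10, with 1, 4 and 6 counts in control, 5, 8 and 1 in the CCDC97 knock-down and 19, 16 and 9 in the TTC33 knock-down. The CPM were 0.0276, 0.109 and 0.190 in control, 0.177, 0.264 and 0.0484 in the CCDC97 knock-down, and 0.610, 0.555 and 0.344 in the TTC33 knock-down. All TTC33 knock-down libraries were above the other 6. The rise was 2.22 ± 0.53 on the log2 scale (interval 1.05 to 3.40, edgeR adjusted p = 0.0246). Without control replicate 1, which had 1 count, it was 1.76 (edgeR adjusted p = 0.102), and without control replicate 3 it was 2.82. The call was also lost without control replicate 2 (0.0964) or TTC33 knock-down replicate 2 (0.0922).

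TWIST1 (chr7:19020991-19117672, - strand) had 10.3, 9.91 and 8.40 CPM in control, 11.1, 8.36 and 10.0 in the CCDC97 knock-down and 10.7, 11.3 and 12.1 in the TTC33 knock-down. The TTC33 knock-down libraries lay above the controls by a small margin, and the CCDC97 knock-down overlapped both. The change with TTC33 was 0.25 ± 0.12 (interval -0.02 to 0.52, edgeR adjusted p = 0.186), and 0.11 with GC content and length corrected.

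**Figure D3:**
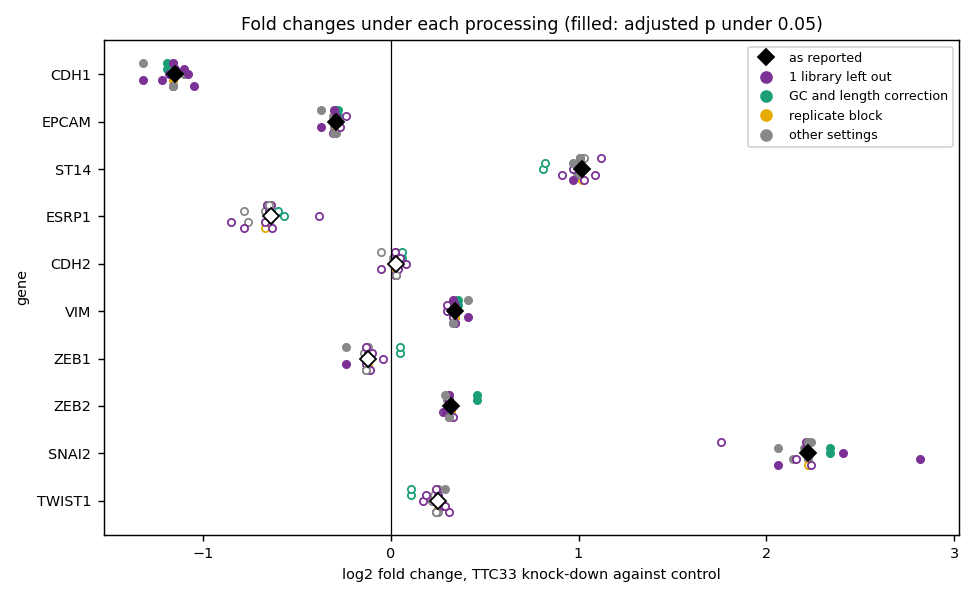
Log2 fold change of each gene in the TTC33 knock-down against control under every fit run; diamonds are the values as reported, circles the alternatives, and filled symbols have an adjusted p under 0.05. CDH1 is filled throughout between -1.32 and -1.05, and ZEB1 lies on either side of 0.

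The CCDC97 knock-down called 0 of the 10 genes (edgeR), against 4.56% of all genes tested, 2.07% higher and 2.49% lower. By unadjusted p under 0.05 there was 1, ZEB2. DESeq2 called the same gene, and 1471 genes tested in place of 835. ZEB2 had a mean of 89.6 ± 7.72 CPM against 72.9 ± 3.08 in control (SD, n = 3), a log2 value of 0.30 ± 0.08 (interval 0.13 to 0.47) with an edgeR adjusted p of 0.0554. It passed in 8 of 20 alternatives, among them DESeq2 (0.0097), GC content and length corrected (0.0112) and a fit of these 2 groups (0.0429). With a library left out it passed in 2 of 9 fits, without replicate 1 of the CCDC97 (0.0126) or the TTC33 knock-down (0.021). It did not pass without any control library or without replicate 2 or 3 of either knock-down, with an edgeR adjusted p up to 0.244. ZEB2 was also the only gene of the 10 whose CCDC97 knock-down and control libraries did not overlap, against 29.9% of all genes. ZEB1 changed by 0.17 ± 0.10 (edgeR adjusted p = 0.398), SNAI2 by 0.71 ± 0.67 (0.601), ST14 by -0.24 ± 0.33 (0.802), VIM by -0.03 ± 0.07 (0.85, interval -0.19 to 0.13) and TWIST1 by 0.04 (0.884). The SNAI2 value rests on single libraries: it was 0.24 without control replicate 1, 1.30 without control replicate 3, 0.19 without CCDC97 knock-down replicate 2 and 1.04 without CCDC97 knock-down replicate 3. The 2 comparisons share the control libraries.

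The knock-downs were then set against each other, in the fit of all 9 libraries, so that the control libraries enter its estimate of the spread. This contrast called 4 of the 10 genes, against 21.5% of all genes tested (11.3% higher, 10.2% lower in the TTC33 knock-down), and the libraries of 5 did not overlap, against 30.4%. CDH1 was lower in the TTC33 knock-down by -0.95 ± 0.14 on the log2 scale (edgeR adjusted p = 0.0018) and VIM was higher by 0.37 ± 0.07 (0.00573), and both held in all 20 alternatives. EPCAM was lower by -0.30 ± 0.08 (edgeR adjusted p = 0.0237), a call lost without replicate 2 or 3 of the CCDC97 knock-down (0.0863 and 0.0731) or of the TTC33 knock-down (0.0897 and 0.0961), and in a fit of these 2 groups alone (0.086). That smaller fit called 1479 genes in place of 3943. ST14 was higher by 1.25 ± 0.30 (0.0152), lost without replicate 3 of the CCDC97 (0.0557) or the TTC33 knock-down (0.0603) and with GC content and length corrected (0.0743). Without replicate 3 of either knock-down, 2 of the 10 were called.

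No repressor was called in this contrast. SNAI2 differed by 1.51 ± 0.52 (edgeR adjusted p = 0.057), and passed in 4 of 17 alternatives: with no filter on low counts (0.0163), with the summed tables (0.0492) and with GC content and length corrected, without the block (1.66, 0.0191) and with it (0.0316). ZEB1 differed by -0.29 ± 0.10 (0.0681). ZEB1 passed without replicate 1 of the CCDC97 (0.0254) or the TTC33 knock-down (0.00195), but stood at -0.08 with GC content and length corrected (0.246). ZEB2 differed by 0.02 (interval -0.15 to 0.19), although with GC content and length corrected it was 0.19 higher in the TTC33 knock-down (edgeR adjusted p = 0.0371). TWIST1 (0.21, edgeR adjusted p = 0.245), ESRP1 (-0.32 ± 0.37, 0.55) and CDH2 (-0.01, 0.913) were not called.

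**Figure D4:**
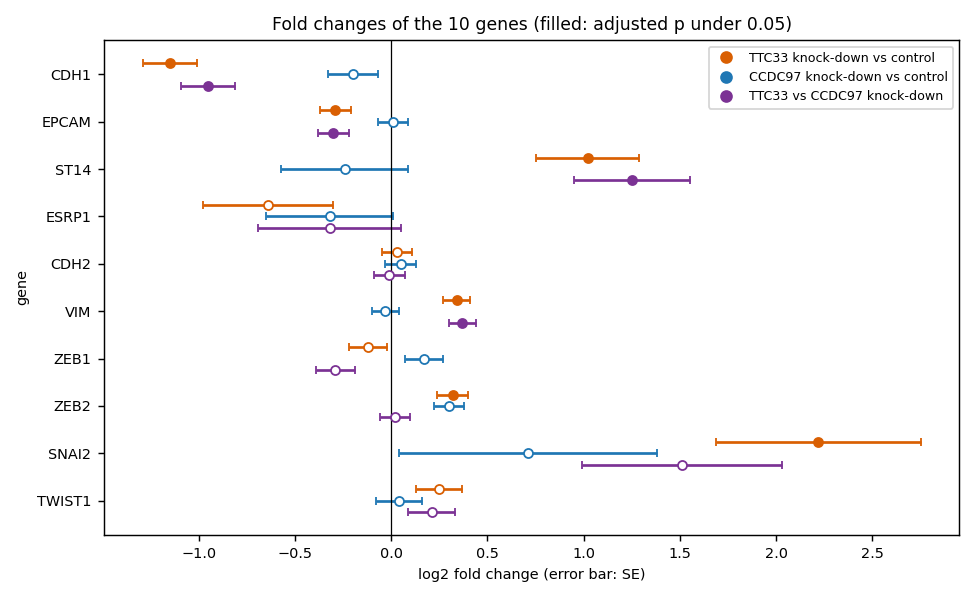
Log2 fold changes of the 10 genes in the 3 comparisons, with SE as error bars; filled points have an edgeR adjusted p under 0.05. CDH1 stands at -1.15 in the TTC33 knock-down, -0.20 in the CCDC97 knock-down and -0.95 between them, while ZEB2 stands at 0.32, 0.30 and 0.02.

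Other genes of the same pathways were read from 9 lists, also chosen with earlier results of these data known. Among the other cadherins and the catenins that tie them to actin, 1 of 8 tested genes rose with TTC33 and 0 fell (median log2 0.04), or 12.5% called against 11.9% over all genes. JUP, or plakoglobin, went from 78.4 ± 4.84 to 108 ± 18.9 CPM (0.46 ± 0.13, edgeR adjusted p = 0.0476). The JUP call passed in 8 of 20 alternatives. It was lost with upper-quartile factors, the filter on a mean of 5 CPM, summed tables, a fit of the 2 groups, and without any library but replicate 1 of either knock-down (0.0607 to 0.197), and its value was 0.25 with GC content and length corrected (0.00223). CDH3 (P-cadherin), which lies next to CDH1, had 14.8 ± 0.334 CPM in control and 11.2 ± 0.971 in the TTC33 knock-down (-0.40, edgeR adjusted p = 0.0502). Against the CCDC97 knock-down, 1 of the 8 was higher and 2 were lower, or 37.5% called against 21.5% over all genes. CDH3 was lower by -0.60 ± 0.12 (edgeR adjusted p = 0.00668) and held in all 20 alternatives. JUP was higher by 0.63 ± 0.13 (0.00991) and passed in 19 of 20. CTNNB1 was lower by -0.25 ± 0.08 (0.0414) and passed in 11 of 20. With CCDC97, 0 of the 8 were called by edgeR, against 4.56% over all genes. Of the 8, 2 passed at an unadjusted p under 0.05, 2 by DESeq2 and 3 with GC content and length corrected. The 4.56% does not apply to these rules. Over all genes, DESeq2 called 1471 and the corrected fit 3509, in place of 835, and the share at an unadjusted p is not given here.

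Of 24 tested genes for epithelial junctions, surface and keratins, 3 fell and 1 rose with TTC33 (median 0.08), which is 16.7% called against 11.9% over all genes. MAL2, a protein of apical transport, had 41.2, 41.1 and 39.7 CPM in control and 28.0, 16.9 and 16.9 in the TTC33 knock-down (-0.98 ± 0.18, edgeR adjusted p = 0.00832), and was called in all 20 alternatives. Its CCDC97 knock-down libraries, at 36.1, 49.1 and 46.2 CPM, lay on both sides of control. The tight junction genes F11R (-0.49 ± 0.10, edgeR adjusted p = 0.0124) and CLDN1 (-0.47 ± 0.11, 0.0227) fell and the desmosomal PPL rose (0.52 ± 0.13, 0.0272). Without control replicate 1, 2 or 3 these calls were lost (F11R 0.0659, 0.0549 and 0.0512; CLDN1 0.0695, 0.0867 and 0.0897; PPL 0.125, 0.0673 and 0.0849), as they were for CLDN1 and PPL without TTC33 knock-down replicate 2 (0.102 and 0.106) or 3 (0.0885 and 0.118). PPL was 0.31 with GC content and length corrected (0.0376). With CCDC97, 1 of the 24 changed (4.17%, against 4.56% over all genes): DSG2, a desmosomal cadherin, fell from 156 ± 6.93 to 120 ± 4.87 CPM (-0.38 ± 0.09, edgeR adjusted p = 0.0332). The DSG2 call was lost without any control library (0.154, 0.149 and 0.0844 for replicates 1, 2 and 3) and without CCDC97 knock-down replicate 2 or 3 (0.127 and 0.0765). Between the knock-downs, 5 of the 24 were higher with TTC33 and 3 lower, or 33.3% called against 21.5% over all genes. PPL (0.58 ± 0.13, edgeR adjusted p = 0.0122) and KRT19 (0.57 ± 0.14, 0.016) were among the higher genes. CLDN1 (-0.78 ± 0.11, 0.00129) and MAL2 (-1.08 ± 0.18, 0.00319) were among the lower.

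Factors that maintain epithelia were not called by edgeR. Over all genes tested, 11.9% were called with TTC33 and 4.56% with CCDC97. Lists of 7 to 9 genes are too short to tell a count of 0 from these shares. Of 7 tested, 0 passed with either knock-down; at an unadjusted p under 0.05 there were 2 with TTC33 and 1 with CCDC97, DESeq2 called 0 in each, and with GC content and length corrected 1 passed with TTC33 and 2 with CCDC97. Of 8 splicing regulators and of 9 genes around matriptase and the HGF receptor, 0 passed with either knock-down. The contrast between the knock-downs called 21.5% of all genes and 0 of the 7 epithelial factors. It called 1 of the 8 splicing regulators lower with TTC33, and 1 of the 9 matriptase genes higher and 1 lower. SRSF1 had 187 ± 6.32 CPM in control and 175, 73.7 and 65.8 in the TTC33 knock-down, without overlap (-0.84 ± 0.3, edgeR adjusted p = 0.0923). At an unadjusted p under 0.05 the splicing regulators gave 1 with TTC33 and 1 with CCDC97, the matriptase genes 0 and 3, and DESeq2 called 0 of each. With GC content and length corrected, 3 splicing regulators passed with TTC33 (ESRP2, SRSF1 and MBNL2), 1 higher and 2 lower. With CCDC97 1 passed, MBNL1, which was higher. Of the matriptase genes, 2 passed with TTC33 (MET and SPINT2) and 2 with CCDC97 (MET and MST1), in each case 1 higher and 1 lower. The corrected fit called 4960 genes with TTC33 and 3509 with CCDC97, in place of 2186 and 835. The shares of 11.9% and 4.56% therefore do not apply to it, nor to counts at an unadjusted p.

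Of 20 tested mesenchymal surface, matrix and cytoskeleton genes, 1 rose and 2 fell with TTC33 (median -0.03), or 15% called against 11.9% over all genes. ACTA2 (smooth muscle actin) rose from 9.64 ± 0.45 to 13.9 ± 1.22 CPM (0.53 ± 0.10, edgeR adjusted p = 0.0108), and the matrix genes TNC (-0.41 ± 0.11, 0.0325) and SPARC (-0.44 ± 0.12, 0.0343) fell. ACTA2 lost its call without control replicate 1 or 2 (0.0609 and 0.0641) or TTC33 knock-down replicate 2 or 3 (0.0501 and 0.0563). TNC and SPARC lost theirs without any control library (TNC 0.103, 0.122 and 0.0951; SPARC 0.121, 0.126 and 0.0823) or TTC33 knock-down replicate 2 (0.128 and 0.0962) or 3 (0.1 and 0.133).

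With CCDC97, 2 of the 20 rose (10%, against 4.56% called over all genes). CD44, a hyaluronan receptor common on mesenchymal cells, went from 14.8 ± 0.0916 to 27.3 ± 0.558 CPM (0.89 ± 0.08, edgeR adjusted p = 0.000198) and held in all 20 alternatives, while with TTC33 it changed by 0.01 (0.939). The other was ACTA2 (0.44 ± 0.10, edgeR adjusted p = 0.0383), lost without any control library (0.166, 0.174 and 0.102), any CCDC97 knock-down library (0.0542, 0.11 and 0.0705) or TTC33 knock-down replicate 2 (0.064). Between the knock-downs, 0 of the 20 were higher with TTC33 and 6 lower, or 30% called against 21.5% over all genes. Among the lower were CD44 (-0.87 ± 0.08, edgeR adjusted p = 9.42e-05), SPARC (-0.81 ± 0.12, 0.00144) and ITGB1 (-0.36 ± 0.07, 0.00562). Each of these held in all 20 alternatives.

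Among 9 intermediate filament genes that can assemble or work with vimentin, 2 rose and 1 fell with TTC33 (median 0.25), or 33.3% called against 11.9% over all genes. INA, a neuronal intermediate filament, rose from 57.0 ± 0.753 to 96.9 ± 2.38 CPM (0.77 ± 0.06, edgeR adjusted p = 4.86e-05) and held in all 20 alternatives. NEFL (neurofilament light chain) fell by 0.30 on the log2 scale, from 188 ± 2.03 to 152 ± 5.25 CPM (edgeR adjusted p = 0.012), lost without control replicate 1, 2 or 3 (0.0591, 0.0661 and 0.0616). With CCDC97, edgeR called 0 of the 9, against 4.56% over all genes. Of the 9, 1 passed at an unadjusted p under 0.05, 0 by DESeq2 and 1 with GC content and length corrected. The 4.56% does not apply to these rules, and the corrected fit called 3509 genes in place of 835. Between the knock-downs, 2 of the 9 were higher with TTC33 (NES and INA) and 1 lower (NEFL). This is 33.3% called against 21.5% over all genes.

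Of 17 other transcription factors linked to the transition, 3 rose and 2 fell with TTC33 (median 0.08), or 29.4% called against 11.9% over all genes (6.5% higher, 5.44% lower). With CCDC97, 2 rose (PRRX1 and TCF12), or 11.8% against 4.56%. Between the knock-downs, 3 were higher with TTC33 and 3 lower, or 35.3% against 21.5%. TCF12 had 84.2 ± 2.61 CPM in control and 103 ± 6.56 in the CCDC97 knock-down (0.29 ± 0.07, edgeR adjusted p = 0.0489). Its call passed in 10 of 20 alternatives. SNAI1 (SNAIL, the paralog of SNAI2) had 1.52, 1.52 and 1.52 CPM in control and 2.22, 4.09 and 4.02 in the TTC33 knock-down (1.17 ± 0.24, edgeR adjusted p = 0.0135). Its CCDC97 knock-down libraries had 2.62, 1.68 and 1.94 CPM, also above control but not called (0.45 ± 0.26, edgeR adjusted p = 0.357). The CCDC97 knock-down and control libraries did not overlap for 29.9% of all genes. The SNAI1 call was lost without control replicate 1, 2 or 3 (0.0632, 0.062 and 0.0551) or TTC33 knock-down replicate 2 or 3 (0.0683 and 0.0595). SCRT1, a neural member of the SNAIL superfamily, rose from 0.18 ± 0.108 to 1.22 ± 0.25 CPM (2.71 ± 0.36, edgeR adjusted p = 0.00127) and kept its call whichever library was left out.

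PRRX1, a mesenchymal homeobox factor, went in opposite directions. It had 11.1 ± 0.312 CPM in control, 16.8 ± 1.09 in the CCDC97 knock-down (0.59 ± 0.10, edgeR adjusted p = 0.00655) and 8.54 ± 0.791 in the TTC33 knock-down (-0.38 ± 0.10, 0.0316), and differed between the knock-downs by -0.97 ± 0.10 (0.000136). The call with TTC33 was lost without control replicate 1, 2 or 3 (0.12, 0.112 and 0.0834) or TTC33 knock-down replicate 2 or 3 (0.13 and 0.107). TCF4 fell with TTC33 (-0.35 ± 0.09, 0.0297), lost without the same libraries (0.12, 0.108, 0.0813, 0.126 and 0.108), and was -0.17 with GC content and length corrected (0.0147). Of 13 corepressors that ZEB and SNAIL factors recruit, edgeR called 0 in each comparison; at an unadjusted p under 0.05 there were 1 with TTC33 and 0 with CCDC97, DESeq2 called 0 in both, and with GC content and length corrected 1 passed with TTC33 and 0 with CCDC97. Between the knock-downs these counts were 2, 2 and 3. Over all genes tested, edgeR called 11.9% with TTC33, 4.56% with CCDC97 and 21.5% between the knock-downs. These shares do not apply to the other rules. With GC content and length corrected, 4960 genes were called with TTC33 and 3509 with CCDC97, in place of 2186 and 835.

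As a description, the genes whose log2 CPM followed each called gene most closely over the 9 libraries (Pearson r, over genes at 5 CPM or more on average) were these. CDH1 was closest to UBASH3B (0.988), RNF144A (0.981) and CDK5R1 (0.981). EPCAM was closest to NEBL (0.992), ATP8A1 (0.991) and NREP (0.991), and VIM to MAPK8IP2 (0.993), CALR and OS9 (0.992 each). ZEB2 followed KIDINS220 (0.971), NRP1 (0.965) and ARID5B (0.963). For ST14 they were PLEKHM3 (0.973), STX3 and HCCS (0.972 each), and for SNAI2 they were LMCD1 (0.953), TNFAIP3 (0.92) and CKMT1A (0.912). The 9 points share 3 groups and their depths, so the values are not independent of the group differences above.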

How the data were processed

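Total RNA of 9 libraries (3 groups of 3, from the labels) was sequenced. The deposited values are whole-number read counts per gene, made by the authors with Trimmomatic 0.39, HISAT2 (no version stated) and HTSeq 2.0.1 on GRCh38, per the submitters' processing notes. Which annotation release and strand setting were used is not given in the sources used here. The larger of 2 count tables per library, marked R12, was used; the table marked U (6.55% to 11.9% of the sum) was added only as an alternative. Rows that name no gene held 33.4% to 57.9% of R12 counts and were left out.

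All 18299 genes kept by filterByExpr were fitted with edgeR 4.0.16 in R 4.3.3 (TMM factors, quasi-likelihood, 1 term per group, all 9 libraries, 6 residual degrees of freedom). Tests were two-sided, with Benjamini-Hochberg adjustment over all genes tested and a threshold of 0.05. Standard errors and 95% intervals were derived from each F statistic. CPM uses TMM-scaled totals. Coordinates, lengths and GC content are from GENCODE 29 on GRCh38, which gave GC content for 18042 genes tested (98.6%) and may differ from the release behind the counts. The correction for GC content and length subtracts smooth trends per library (mgcv 1.9.3).

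Alternatives were DESeq2 size factors, upper-quartile factors, no filter, a mean of 5 CPM, DESeq2 1.42.0, a replicate block, a fit of the 2 groups compared, summed tables, the GC correction with and without the block, and leaving out libraries. The fit was tested on simulated data. The 10 genes, the lists and the alternatives were chosen with earlier results of these data known. Genes named from a list are up to 4 with the smallest adjusted p among those called with a mean of at least 1 CPM in a group. Named beyond that rule are CDH3, ESRP2, CD44 with TTC33, SNAI1 with CCDC97 and the miR-200 genes. So are SRSF1, MBNL2, MBNL1, MET, SPINT2 and MST1, named for their values in the comparisons with control.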

Additional observations from a re-analysis of the deposited data

Results flagged for a closer look

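The effect of the TTC33 knock-down differed from that of the CCDC97 knock-down, by the direct test of the difference, for 4 of the 10 genes. Over all genes tested, 21.5% were called in this contrast. On the log2 scale, TTC33 minus CCDC97, the difference was -0.95 for CDH1 and -0.30 for EPCAM. It was 1.25 for ST14 and 0.37 for VIM. The edgeR adjusted p-values were 0.0018, 0.0237, 0.0152 and 0.00573. For each of these genes the 3 libraries of the TTC33 knock-down lay on one side of the 3 of the CCDC97 knock-down. The same held for 30.4% of all genes tested. The 4 genes were picked by the test on these same libraries, so their separation is no separate support. The calls of CDH1 and VIM held in all 20 alternatives, while EPCAM passed in 14 of 20 and ST14 in 14 of 18.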

How the results depend on the processing

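Direction and call of CDH1 held in all 20 alternatives for the TTC33 knock-down against control and for the direct contrast, and those of VIM in the direct contrast. The other called genes of the 10 lost their calls in the fits named with them above and with the replicate block (except ST14 in the direct contrast). The highest numbers of genes called came where replicate 1 of both knock-downs was left out.

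For the TTC33 knock-down, 2186 genes became 3821 with no filter, 4960 with GC content and length corrected, 9129 with both knock-downs without their replicate 1, and 552 to 6512 with a library left out; the 6 of the 10 genes became 1 to 7 with a library left out. For the CCDC97 knock-down, 835 genes became 1369 with no filter, 1471 by DESeq2, 3509 with the GC correction, 1339 in a fit of the 2 groups, 6675 with both knock-downs without replicate 1, and 203 to 1981 with a library left out. The 0 of the 10 became 1 with a filter on a mean of 5 CPM, by DESeq2, with the GC correction and in the fit of the 2 groups, 2 with both knock-downs without replicate 1, and 0 to 1 with a library left out. With the GC correction, the split of CCDC97 calls was 2040 higher and 1469 lower, against 379 and 456. For the direct contrast, 3943 genes became 1479 in the fit of the 2 groups, 10362 with both knock-downs without replicate 1, and 1528 to 7767 with a library left out; the 4 of the 10 became 7 with both knock-downs without replicate 1, and 2 to 5 with a library left out.

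Replicate numbers showed no clear pairing of the samples. The correlation of same-numbered deviations from the group mean was 0.07, 0.04 and 0.07 for TTC33 and control and -0.03, 0.09 and 0.01 for CCDC97 and control. Between knock-downs it was -0.50, -0.11 and -0.14, and from -0.27 to 0.37 for libraries of unlike number. The 3 deviations of a group sum to 0, so these values cannot exclude a batch shared by number. With the replicate block, the counts were 756, 240 and 1857 genes in the 3 comparisons, with 1 of the 10 genes (CDH1) for TTC33. With the block, MAL2, INA, SCRT1 and ACTA2 kept their calls for TTC33 and CD44 and PRRX1 theirs for CCDC97. Lost for TTC33 were the calls of JUP, F11R, CLDN1, PPL, TNC, SPARC, NEFL, SNAI1, TCF4 and PRRX1 (edgeR adjusted p from 0.0515 to 0.116). Lost for CCDC97 were those of DSG2, ACTA2 and TCF12 (edgeR adjusted p = 0.0952, 0.122 and 0.147). With the block and the GC correction the gene counts were 4550 for TTC33, and 3152 for CCDC97 with 1 of the 10 and a split of 1850 higher and 1302 lower.

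Values near 0 changed sign. For TTC33, ZEB1 was 0.05 with the GC correction, with and without the block, and CDH2 was -0.05 with both knock-downs without replicate 1 and -0.05 to 0.08 with a library left out. For CCDC97, EPCAM was 0.00 with upper-quartile factors, -0.02 with no filter, -0.01 with the 5 CPM filter, -0.04 with the GC correction, with and without the block, and -0.02 to 0.04 with a library left out, and TWIST1 was -0.07 with both knock-downs without replicate 1 and -0.06 to 0.15 with a library left out. In the direct contrast, CDH2 was 0.01 with upper-quartile factors and with the 5 CPM filter, 0.03 with the GC correction, with and without the block, and -0.09 to 0.04 with a library left out, and ZEB2 was -0.07 with both knock-downs without replicate 1 and -0.05 to 0.06 with a library left out. The cause of these changes was not tested. Counts of 1 to 26 a library limit SNAI2, ST14 and ESRP1.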
